A study of Mus musculus with 10 samples.

Results

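The 10 genes described are transcripts of the 2-cell-stage mouse embryo: Tcstv1, Tcstv3, BC147527, Trim43a, Zfp352, Usp17la, Tdpoz1, Ubtfl1, Rfpl4b and Duxf3. They were taken by name, as every probe set annotated with 1 of these symbols and no other, which gave 11 probe sets of 45101 on the array and 10 of 18194 named genes. Zfp352 had 2 probe sets and the others 1 each. The names were chosen because the genes were high on the arrays labelled siSocs3, so every value that sets siSocs3 against another group is given as a description, without a test.

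The cells were NG4, a mouse embryonic stem cell line, reverse transfected with siRNA and differentiated under retinoic acid, with RNA taken 48 h after transfection. There were 5 groups of 2 Affymetrix arrays: siSocs3, siSox17, siFbxw7, siRnf31 and siNonTarget, the last with an siRNA that has no target. Socs3 encodes an inhibitor of STAT3 signalling downstream of LIF, Sox17 an endoderm transcription factor, Fbxw7 the substrate receptor of a ubiquitin ligase and Rnf31 a ligase of linear ubiquitin chains. All groups shared the cell line, the retinoic acid and the time of collection; the labels name no further genotype and do not say whether replicates were separate cultures, so p-values measure a spread between samples that may be technical.

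At the 2-cell stage the mouse embryo switches on its own genome, and a set of genes is transcribed then and silenced soon after. Cultures of mouse embryonic stem cells hold a small share of cells that pass through a state in which many of these genes are on, called 2-cell-like cells. In the mouse the double homeobox factor Dux, listed here as Duxf3, switches on much of the set, while chromatin repressors hold it off in the rest of the culture. These are bulk samples, so more cells in such a state and more RNA per cell cannot be told apart.

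Promoter sequences are shown for 4 genes whose windows hold the motifs searched. RefSeq's promoter table of build GRCm38.p6 matched 8 of the 10 genes; Tcstv1 and Tcstv3 are named only. Below, the 250 bases before the annotated start are printed 5′ to 3′ on the gene's strand. Capitals mark TATAA, a short form of the TATA box; GATTNAATC, the core of a sequence that DUX proteins bind; and GGATTA, a homeobox sequence bound by OBOX and OTX proteins, each on either strand. Zfp352 lies at chr4:90218570-90218819 (plus strand), Tdpoz1 at chr3:93676284-93676533 (minus strand), Rfpl4b at chr10:38821780-38822029 (minus strand) and Duxf3 at chr10:58233090-58233339 (minus strand).
Zfp352: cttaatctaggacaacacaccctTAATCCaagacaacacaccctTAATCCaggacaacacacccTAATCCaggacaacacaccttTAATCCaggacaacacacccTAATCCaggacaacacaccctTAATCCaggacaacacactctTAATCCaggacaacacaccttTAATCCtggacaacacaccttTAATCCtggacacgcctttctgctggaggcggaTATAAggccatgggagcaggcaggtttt
Tdpoz1: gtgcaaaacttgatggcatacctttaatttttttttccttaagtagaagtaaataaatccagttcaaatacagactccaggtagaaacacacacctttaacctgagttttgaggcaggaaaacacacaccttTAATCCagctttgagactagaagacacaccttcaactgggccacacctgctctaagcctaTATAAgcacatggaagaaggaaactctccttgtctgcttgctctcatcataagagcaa
Rfpl4b: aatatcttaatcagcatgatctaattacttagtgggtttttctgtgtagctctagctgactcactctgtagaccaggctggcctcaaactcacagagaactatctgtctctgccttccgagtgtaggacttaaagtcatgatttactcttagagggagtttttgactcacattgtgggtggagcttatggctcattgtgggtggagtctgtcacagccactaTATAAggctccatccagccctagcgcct
Duxf3: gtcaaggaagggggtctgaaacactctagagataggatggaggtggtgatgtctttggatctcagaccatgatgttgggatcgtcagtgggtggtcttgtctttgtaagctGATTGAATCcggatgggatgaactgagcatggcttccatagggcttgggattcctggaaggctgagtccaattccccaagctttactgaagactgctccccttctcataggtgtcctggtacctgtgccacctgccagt

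Zfp352 was chosen for its repeat. TAATCC, the reverse complement of GGATTA, occurred 9 times in its window, and 1 of 32851 promoters had that many matches, Zfp352 itself. Tdpoz1 and BC147527 held 1 match each, so that 3 of 8 windows had GGATTA on either strand, against 6.25% of all promoters. Rfpl4b was chosen with Zfp352 for the place of TATAA, which lay 28 bases before the start in both; in Tdpoz1 it lay 58 bases before. TATAA or its reverse complement TTATA was found in 4 of 8 windows, the 4th being Ubtfl1, against 22.8% of all promoters, and this motif was added after the sequences had been seen. The longer TATAAA, with TTTATA, was in 0 of 8 and 12.4% of all. Duxf3 was the 1 window of 8 with GATTNAATC, which reads the same on both strands and was in 0.247% of all promoters. The octamer ATGCAAAT, with ATTTGCAT, a sequence that POU factors such as OCT4 bind, was in 0 of 8 and in 1.6% of all. Every TATAAA also contains TATAA, and the other motifs can overlap only in part. The windows held 39.2% to 51.2% G and C, below the median of 52.4% over all promoters, and 0 to 2 CG dinucleotides against a median of 6. A match is a description of letters, and no match says only that these letters are not in the window.

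Tcstv1, BC147527 and Tcstv3 lie in 1 stretch of chromosome 13 together with 3 genes outside the set, AF067063, Gm20767 and AF067061. By RefSeq's GRCm38.p6 table the stretch holds 31 genes, with 1 gene between BC147527 and Tcstv3. Trim43a and Ubtfl1 lie on chromosome 9, Rfpl4b and Duxf3 on chromosome 10, Zfp352 on chromosome 4, Usp17la on chromosome 7 and Tdpoz1 on chromosome 3. Most of the 10 belong to families of near copies, and probe sets can pick up relatives: the suffix _x_at, on BC147527 and on the second probe set of Zfp352, marks probes that match other transcripts too. A level printed under a gene's name may therefore include related transcripts.

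In no group did the transcript named by its siRNA pass the test. Socs3 itself read 10.66 and 10.11 on the arrays labelled siSocs3, against 9.62 and 10.28 on the siNonTarget arrays (log2 difference 0.44, adjusted p = 0.281, limma with Benjamini-Hochberg adjustment), so its transcript does not check the label. The other Socs3 probe sets were also higher in siSocs3 than in siNonTarget, by 0.46 and 0.44. Each in its own group against siNonTarget, Sox17 was 0.03 (adjusted p = 0.988, limma), Fbxw7 −0.25 (0.775) and Rnf31 −0.4 (0.778). Further probe sets gave 0 for Sox17 and −0.5 for Fbxw7. The log2 signal of actin at its 3′ end exceeded that at its 5′ end, a sign of RNA length, by 0.60 on siFbxw7 replicate 1 and 0.50 on siNonTarget replicate 1, and by 0.21 to 0.29 on the other arrays. On the 10 arrays, 16 embryonic stem cell markers had a mean log2 level of 9.98 to 11.25, and 13 oocyte markers one of 4.49 to 4.60.

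The values below are log2 of the deposited intensity. As a guide to what a dim probe set reads, 20 genes of adult tissues such as lens, pituitary and muscle were read: their lowest value was 2.85, their median 4.30 and their highest mean 7.22 (Actn3), and the 90th percentile of their means was 6.32. Probe sets differ in their own background, so levels are set against each other only within a probe set.

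On the arrays labelled siSocs3, 8 of the 10 genes stood at least 2-fold above their siNonTarget means, as did 1.49% of all genes. Their excess ran from 3.3-fold for Tdpoz1 to 10.6-fold for Trim43a. The exceptions were Duxf3, at 1.33-fold, and Rfpl4b, at 1.28-fold. Since the names were chosen on this comparison, nothing is read from that count. Between the other groups the genes differed less, and none passed a test.

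Duxf3 encodes the mouse Dux factor. It read 5.91 and 5.64 on the siSocs3 arrays, 5.25 and 5.07 on siSox17, 5.16 and 5.25 on siFbxw7, 5.21 and 5.10 on siRnf31, and 5.28 and 5.46 on siNonTarget. Both siSocs3 arrays were above the other 8, but the step was small: the mean was 0.41 ± 0.13 above siNonTarget (log2, SE, n = 2 arrays per group), a fold of 1.33. Leaving out siSocs3 replicate 1 gave 0.27 and leaving out siSocs3 replicate 2 gave 0.54. All 10 values lay inside the range of the adult tissue genes.

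Zfp352, a zinc finger protein gene, read 10.03 and 9.71 on the siSocs3 arrays, 7.09 and 6.67 on siSox17, 7.23 and 7.20 on siFbxw7, 7.23 and 8.08 on siRnf31, and 7.17 and 7.94 on siNonTarget. The siSocs3 arrays stood clear of the rest, and among the rest the second arrays of siRnf31 and siNonTarget were the highest. Its second probe set gave the same picture, with 9.88 and 9.58 on siSocs3, 6.55 and 6.31 on siSox17, 6.98 and 6.89 on siFbxw7, 6.97 and 8.09 on siRnf31, and 6.96 and 7.71 on siNonTarget. The first probe set was 2.31 ± 0.31 higher in siSocs3 than in siNonTarget, a fold of 4.98.

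Ubtfl1 encodes an HMG-box protein related to UBTF, the factor of ribosomal RNA transcription. It read 10.78 and 10.22 on the siSocs3 arrays, 7.31 and 6.57 on siSox17, 7.42 and 7.21 on siFbxw7, 7.69 and 8.19 on siRnf31, and 7.39 and 8.43 on siNonTarget. The difference of siSocs3 from siNonTarget was 2.59 ± 0.36, a fold of 6.01. The siNonTarget arrays lay far apart, and the difference was 3.11 without siNonTarget replicate 2 and 2.07 without siNonTarget replicate 1.

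The enzymes of the ubiquitin system in the set were Trim43a, of the tripartite motif family of ubiquitin ligases, and Usp17la, a deubiquitinase. Trim43a read 10.20 and 9.57 on the siSocs3 arrays, 7.29 and 6.65 on siSox17, 6.46 and 6.72 on siFbxw7, 7.01 and 7.32 on siRnf31, and 6.05 and 6.91 on siNonTarget. At 3.40 ± 0.32, a fold of 10.6, its difference from siNonTarget was the largest of the 10 genes and 2nd of all 18194. It was 2.97 without siNonTarget replicate 1 and 3.83 without siNonTarget replicate 2. Usp17la read 12.50 and 12.39 on the siSocs3 arrays, 9.85 and 9.38 on siSox17, 9.94 and 9.82 on siFbxw7, 10.12 and 10.85 on siRnf31, and 10.15 and 10.69 on siNonTarget. Its siSocs3 arrays were close together and on average 2.02 ± 0.26 above siNonTarget, a fold of 4.07. On all 10 arrays Usp17la lay above every value of the adult tissue genes.

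The 3 members of the stretch on chromosome 13 were dim wherever siSocs3 was not used. Tcstv1 and Tcstv3 belong to the 2-cell-stage variable group and, when overexpressed in mouse embryonic stem cells, are known to lengthen telomeres. Tcstv3 read 6.39 and 6.07 on the siSocs3 arrays, 3.24 and 3.0 on siSox17, 3.25 and 3.59 on siFbxw7, 3.17 and 3.75 on siRnf31, and 3.40 and 3.68 on siNonTarget. Tcstv1 read 6.12 and 5.71 on siSocs3, 3.37 and 3.42 on siSox17, 3.20 and 3.58 on siFbxw7, 3.49 and 4.27 on siRnf31, and 3.51 and 3.63 on siNonTarget. On the 8 other arrays both lay below the median of the adult tissue genes, and on the siSocs3 arrays within that list's range. The differences of siSocs3 from siNonTarget were 2.69 ± 0.21 for Tcstv3 and 2.34 ± 0.24 for Tcstv1, folds of 6.46 and 5.08. BC147527, to which no role is given here, read 5.95 and 5.79 on siSocs3, 3.46 and 3.37 on siSox17, 3.59 and 3.56 on siFbxw7, 3.24 and 3.70 on siRnf31, and 3.44 and 3.81 on siNonTarget. It was 2.25 ± 0.17 higher in siSocs3 than in siNonTarget, a fold of 4.75.

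Tdpoz1, of a mouse family with TRAF-like and POZ domains, and Rfpl4b, a ret finger protein-like gene, were the remaining 2. Tdpoz1 read 6.50 and 6.01 on the siSocs3 arrays, 4.38 and 4.20 on siSox17, 4.59 and 4.50 on siFbxw7, 4.23 and 4.92 on siRnf31, and 4.38 and 4.69 on siNonTarget, which put siSocs3 1.72 ± 0.24 above siNonTarget, a fold of 3.3. Rfpl4b read 5.19 and 4.71 on siSocs3, 4.52 and 4.75 on siSox17, 4.76 and 4.67 on siFbxw7, 4.58 and 4.55 on siRnf31, and 4.66 and 4.52 on siNonTarget. Here the groups overlapped: siSocs3 replicate 2, at 4.71, was below siFbxw7 replicate 1 and siSox17 replicate 2. The difference from siNonTarget was 0.36 ± 0.16, and it was 0.12 without siSocs3 replicate 1 and 0.60 without siSocs3 replicate 2.

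**Figure D1:**
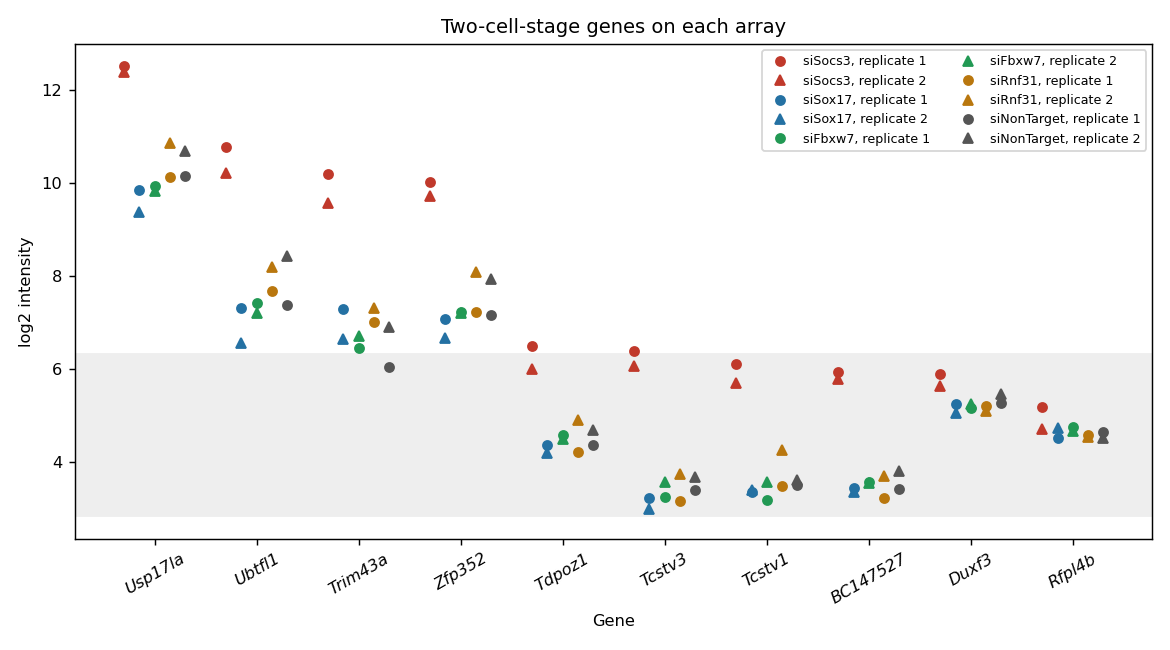
The log2 intensity of each of the 10 genes (x axis) on each of the 10 arrays (y axis), with 1 point per array, colours for the siRNA group and shapes for the replicate. The grey band spans 2.85 to 6.32, from the lowest value of the adult tissue genes to the 90th percentile of their means. Both siSocs3 points stand above the other 8 in every gene but Rfpl4b.

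Across the 10 genes the siSocs3 mean exceeded siNonTarget by a median of 2.28 on the log2 scale, with a range of 0.36 to 3.40, where the median over all genes was 0.03. The 8 genes beyond 2-fold over siNonTarget were also beyond it in siSocs3 against each other siRNA, comparisons that share the siSocs3 arrays. Against siSox17 the median was 2.67 (range 0.31 to 3.56), with 0.874% of all genes above 2-fold. Against siFbxw7 it was 2.54 (range 0.23 to 3.29; 1.18% of all genes). Against siRnf31 it was 2.13 (range 0.38 to 2.77; 0.94% of all genes).

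Ubtfl1 had the largest difference against siSox17, at 3.56 ± 0.36, and Trim43a against siFbxw7, at 3.29 ± 0.32. Against siRnf31 it was Tcstv3, at 2.77 ± 0.21. Duxf3 was 0.61 ± 0.13 above siSox17, 0.57 ± 0.13 above siFbxw7 and 0.62 ± 0.13 above siRnf31. Rfpl4b was 0.31 ± 0.16 above siSox17, 0.23 ± 0.16 above siFbxw7 and 0.38 ± 0.16 above siRnf31. Both siSocs3 arrays lay above all 8 others in 9 of the 10 genes, and in 11.3% of all genes.

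To set the groups in order, each gene's mean over the 10 arrays was subtracted and the 10 genes were averaged on each array. The siSocs3 arrays then stood at 1.88 and 1.50, the siSox17 arrays at −0.50 and −0.77, siFbxw7 at −0.52 and −0.47, siRnf31 at −0.48 and 0.00, and siNonTarget at −0.54 and −0.10. The group means ran from siSocs3 (1.69 ± 0.27, SD, n = 2) to siRnf31 (−0.24 ± 0.34), siNonTarget (−0.32 ± 0.31), siFbxw7 (−0.49 ± 0.03) and siSox17 (−0.64 ± 0.19). Among the last 4, neighbours in this order differed by less than the larger of their 2 SDs.

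**Figure D2:**
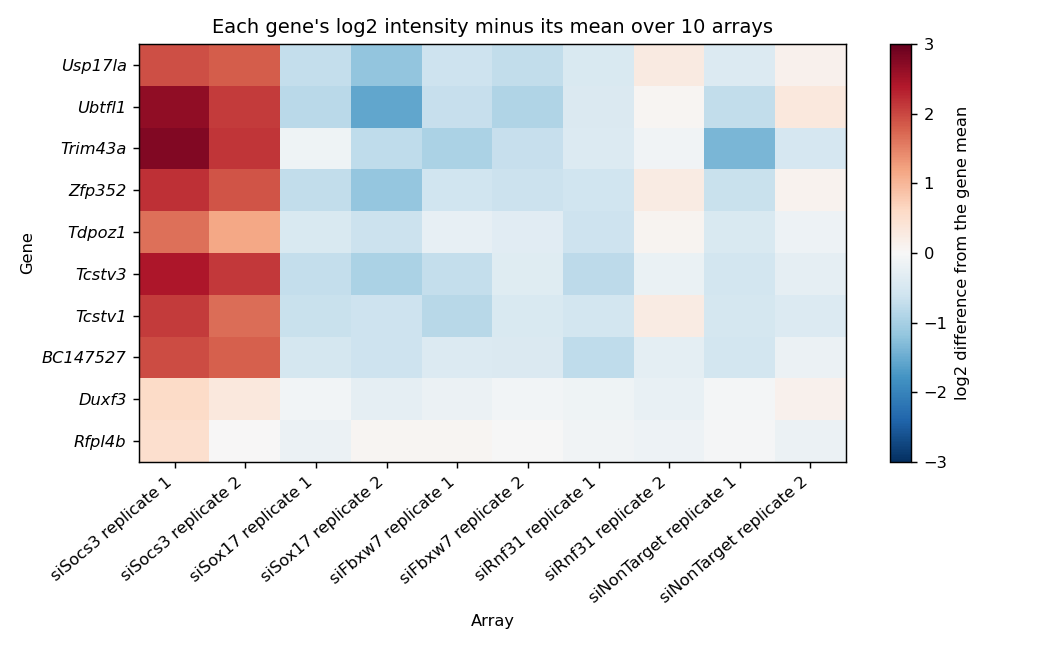
Each gene's log2 intensity minus its own mean over the 10 arrays, with genes in rows and arrays in columns; red is above the gene's mean and blue below. Both siSocs3 columns are above the mean in 10 of 10 rows, though Duxf3 is pale and Rfpl4b is close to 0 on replicate 2, and siRnf31 replicate 2 and siNonTarget replicate 2 are paler than their partners in most rows.

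The groups other than siSocs3 could be tested. Of the 10 genes, 0 passed in any of the 6 comparisons among siSox17, siFbxw7, siRnf31 and siNonTarget (limma, Benjamini-Hochberg over 18194 genes, threshold 0.05). Of all genes 0.0055% passed in siSox17 against siNonTarget and 0% in each of the other 5, so few genes of any kind were called. The 3 comparisons with siNonTarget use the control arrays of the comparison that chose the names. The 3 among siSox17, siFbxw7 and siRnf31 take no group mean from its arrays. The estimate of spread in all 6 comes from the fit on all 10 arrays, siSocs3 and siNonTarget included, so their p-values are not fully separate from that choice. At an unadjusted p under 0.05 the counts were 2 of 10 in siSox17 against siNonTarget (17.3% of all genes), 3 of 10 in siRnf31 against siSox17 (7.68%) and 1 of 10 in siFbxw7 against siRnf31 (5.19%). They were 0 of 10 in siFbxw7 against siNonTarget (6.45%), siRnf31 against siNonTarget (5.87%) and siFbxw7 against siSox17 (5.59%).

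In siSox17 against siNonTarget the median difference of the 10 genes was −0.23, and 8 of 10 were below 0. Over all genes, 8991 of 18194 were above 0. Usp17la was −0.80 ± 0.26 (adjusted p = 0.178, limma) and Ubtfl1 −0.97 ± 0.36 (adjusted p = 0.222, limma), the 2 genes under 0.05 before adjustment. In siRnf31 against siSox17 the median was 0.32. Usp17la was 0.86 ± 0.26 (adjusted p = 0.558, limma), Ubtfl1 1.01 ± 0.36 (adjusted p = 0.589, limma) and Zfp352 0.77 ± 0.31 (adjusted p = 0.609, limma). None of these differences passed. In Usp17la, Ubtfl1 and Zfp352 siSox17 replicate 2 was the lowest of the 10 arrays.

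In the other 4 comparisons the largest difference of a single gene was smaller in size, though not every median was. The median was −0.14 in siFbxw7 against siNonTarget (smallest adjusted p of the 10 genes 0.761, limma), 0.04 in siRnf31 against siNonTarget (0.778), 0.21 in siFbxw7 against siSox17 (0.855) and −0.24 in siFbxw7 against siRnf31 (0.922). Trim43a was 0.69 ± 0.32 above siNonTarget in siRnf31 and 0.49 ± 0.32 above it in siSox17; neither passed, and siNonTarget replicate 1 was its lowest array. For a single gene an exact permutation test of 2 arrays against 2 cannot give a two-sided p below 0.333.

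In every group but siFbxw7 the replicates differed in a way that most of the 10 genes shared. In siSocs3, replicate 1 was above replicate 2 in 10 of 10 genes, and in 44.5% of all genes. In siNonTarget, replicate 2 was above replicate 1 in 9 of 10 genes and in 48% of all genes. For siRnf31 the count was 8 of 10 (50.8% of all genes), with replicate 2 the higher, and for siSox17 8 of 10 (50.2%), with replicate 1 the higher. In siFbxw7 replicate 2 was the higher in 4 of 10 (49.9%). Of the 8 arrays without siSocs3, siRnf31 replicate 2 was the highest for 6 genes and siNonTarget replicate 2 for 3.

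Some markers of other kinds differed between the same replicates. The 16 embryonic stem cell markers averaged 10.62 on siRnf31 replicate 1 and 10.07 on replicate 2, and 10.14 and 9.98 on siNonTarget replicates 1 and 2. In these 2 groups they were lower on the replicate where most of the 10 genes were higher. The same held in siSox17, at 10.56 and 10.73 on replicates 1 and 2. It did not hold in siSocs3, at 11.25 and 11.10, where the markers and the 10 genes were both higher on replicate 1. The 16 fibroblast markers averaged 6.19 on siRnf31 replicate 2 and 6.05 on siNonTarget replicate 2, against 5.61 to 5.83 on the other 8 arrays. Replicate 2 was above replicate 1 in 13 of the 16 in siRnf31 (50.8% of all genes). In siNonTarget it was above in only 8 of the 16 (48% of all genes), so that mean was not raised by most of the list. Col3a1, a fibrillar collagen gene, read 8.35 on siRnf31 replicate 2 and 8.10 on siNonTarget replicate 2, against 6.26 and 5.17 on replicate 1 of those groups. The part of these shifts in the replicate differences was not tested.

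The 10 genes also varied together in different degree. Each was correlated with the mean of the other 9 over the 10 arrays, as a description, since the arrays share 5 groups and the siSocs3 step. Pearson's r was 0.636 for Rfpl4b, 0.906 for Duxf3 and 0.955 to 0.991 for the other 8. Over the 8 arrays without siSocs3, r was 0.99 for Zfp352, 0.933 for Usp17la, 0.893 for Ubtfl1, 0.859 for Tdpoz1 and 0.853 for Tcstv3. It was 0.73 for BC147527, 0.713 for Tcstv1, 0.365 for Trim43a, 0.316 for Duxf3 and −0.709 for Rfpl4b. On those 8 arrays Zfp352, whose log2 values spanned 1.41, followed the mean of the others most closely. Rfpl4b spanned only 0.25 there, within the range of the adult tissue genes, so its negative r rests on small differences and no opposite course is read from it.

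Other genes of the 2-cell stage, from a list of 32 of which 11 had a probe set of their own, were tested in siSocs3 against siNonTarget. Of the 11, 9 rose, 0 fell and 2 did not pass, with a median of 1.96, where 3.59% of all genes rose and 5.66% fell (limma, Benjamini-Hochberg, threshold 0.05). The list was drawn up with earlier results of these arrays known, so its count is not independent evidence of its direction. Without siSocs3 replicate 1 the count was 0 of 11, when 63 of all 18194 genes passed, against 1684 with it. Without siNonTarget replicate 1 it was 1, Obox6, and without both arrays of high actin difference it was 3, Arg2, Obox6 and Sp110.

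The neighbours on chromosome 13 were among those that rose. Gm20767 read 11.17 and 10.71 on the siSocs3 arrays, 7.69 and 7.10 on siSox17, 7.82 and 7.75 on siFbxw7, 7.94 and 9.12 on siRnf31, and 7.88 and 8.95 on siNonTarget, a difference of 2.53 ± 0.43 (adjusted p = 0.0121, limma). Its pattern was that of Zfp352, with the second arrays of siRnf31 and siNonTarget above the rest but below siSocs3. AF067063 rose by 2.05 ± 0.34 (adjusted p = 0.0108, limma) and AF067061, read with an _x_at probe set, by 1.96 ± 0.39 (adjusted p = 0.019, limma).

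Obox genes form a mouse family of homeobox factors of the oocyte and early embryo. Obox6 read 7.95 and 7.65 on siSocs3, 5.04 and 4.80 on siSox17, 5.22 and 5.08 on siFbxw7, 5.25 and 6.20 on siRnf31, and 5.65 and 6.02 on siNonTarget. It rose by 1.96 ± 0.27 (adjusted p = 0.0067, limma), Obox2 by 0.88 ± 0.16 (0.0141) and Obox3 by 0.57 ± 0.10 (0.0143). Obox5 was 0.05 ± 0.12 (0.838). All values of Obox2, Obox3 and Obox5 lay below 5, in the range of the adult tissue genes.

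Of the rest, Sp110, a nuclear body protein gene, rose by 2.42 ± 0.40 (adjusted p = 0.0113, limma), Spz1, a helix-loop-helix factor named from the testis, by 2.02 ± 0.35 (0.0129) and Arg2, the mitochondrial arginase, by 1.50 ± 0.23 (0.00872). Ddit4l, an inhibitor of mTOR signalling, was 0.45 ± 0.23 (adjusted p = 0.256, limma). Its probe sets disagreed: another one read 10.27 and 10.23 on siSocs3 against 8.43 and 9.24 on siNonTarget. The number of the 11 that rose in siSocs3 was 7 against siSox17, 7 against siFbxw7 and 9 against siRnf31, where 1.64%, 2.09% and 1.5% of all genes rose. These comparisons share the siSocs3 arrays. Of 12 close relatives of the 10 genes, only Rfpl4 had a probe set of its own, and it was 0.26 ± 0.13 (adjusted p = 0.26, limma).

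Regulators known from mouse embryonic stem cells were counted in the same way. Of 4 activators of the 2-cell-like state, 3 were measured, and 2 rose in siSocs3 against siNonTarget, where 3.59% of all genes rose. This list too was drawn up with earlier results of these arrays known, so its count is not independent evidence. Nelfa, a subunit of the negative elongation factor, read 11.93 and 11.65 on siSocs3, 10.22 and 10.11 on siSox17, 10.19 and 10.24 on siFbxw7, 10.38 and 10.77 on siRnf31, and 10.39 and 10.63 on siNonTarget. It rose by 1.28 ± 0.16 (adjusted p = 0.00433, limma). Dppa2, which with Dppa4 acts upstream of Dux, rose by 0.94 ± 0.12 (0.00436), while Dppa4 was 0.35 ± 0.10 (0.0698) and passed in 3 of 20 alternative settings. Without siSocs3 replicate 1, 0 of the 3 passed.

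Of 28 repressors 24 were measured, and 1 rose, 2 fell and 21 did not pass, with a median of 0.04. These counts are near the shares over all genes, of which 3.59% rose and 5.66% fell. Zfp42, also a marker of undifferentiated cells, rose by 1.01 ± 0.17 (adjusted p = 0.0129, limma). E2f6, of a polycomb complex, fell by 0.49 ± 0.10 on the log2 scale (0.0236), as did Smchd1, a chromosomal protein of gene silencing, by 0.49 ± 0.12 (0.0426). The call of Smchd1 was lost in 12 of 20 alternative settings, that of E2f6 in 7 and that of Zfp42 in 2. Setdb1, a histone H3 lysine 9 methyltransferase, was 0.39 ± 0.10 (0.0506), Lin28a, an RNA-binding protein, −0.46 ± 0.15 (0.0902) and Rif1, a chromatin protein, 0.26 ± 0.09 (0.0988). In the fit without siSocs3 replicate 1, and in that without siNonTarget replicate 1, 0 of the 24 passed.

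**Figure D3:**
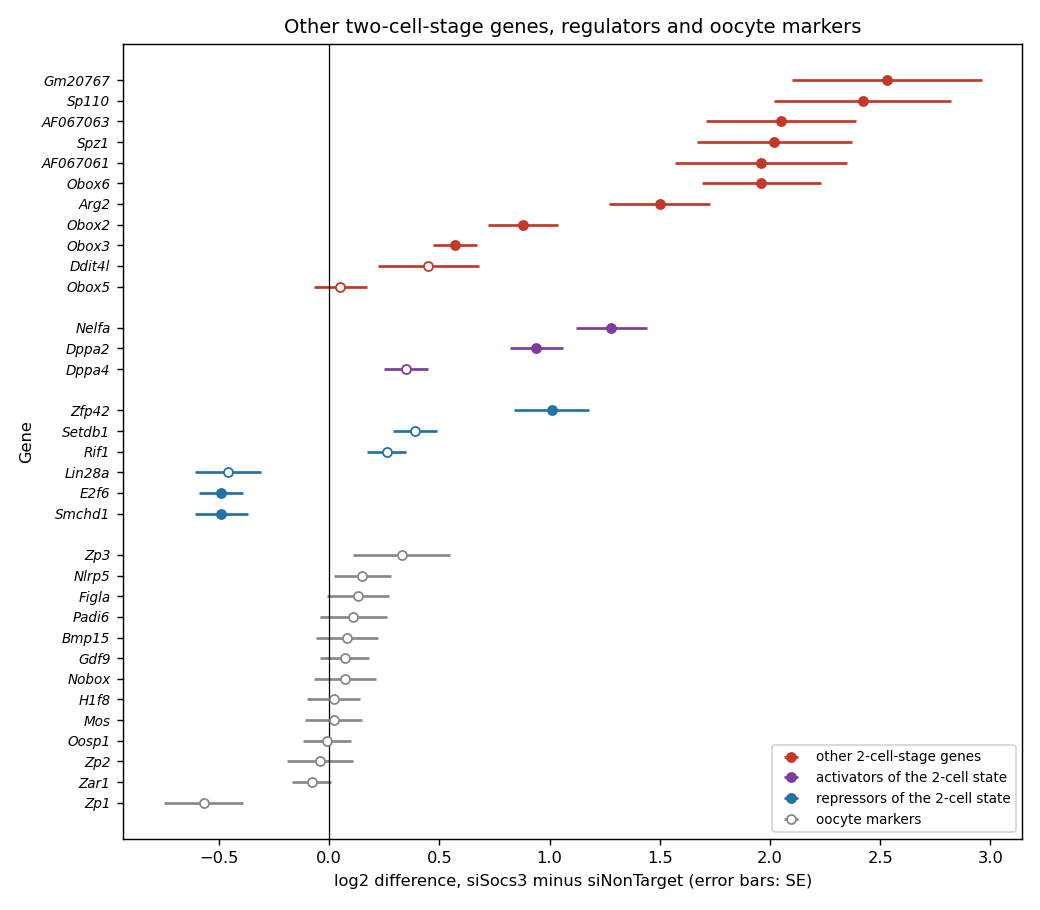
Log2 difference of siSocs3 minus siNonTarget (x axis, points) with its SE (bars) for 11 other 2-cell-stage genes, 3 activators, 6 repressors with the smallest p and 13 oocyte markers. Filled points passed the test and open points did not; 9 of the 11 other genes and 2 of the 3 activators are filled above 0, and no oocyte marker is filled.

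Markers of other cells moved as follows in siSocs3 against siNonTarget, where 3.59% of all genes rose and 5.66% fell. Of 16 embryonic stem cell markers, 9 rose and 0 fell, with a median of 1.19, and their mean level was 11.25 and 11.10 on the siSocs3 arrays against 9.98 to 10.73 on the other 8. The part of that shift in the levels of the 2-cell-stage genes was not tested. Of 13 oocyte markers 0 passed, with a median of 0.07 (limma; 1 of 13 had an unadjusted p under 0.05, as did 26.2% of all genes). Their mean level was 4.54 and 4.56 on siSocs3 against 4.49 to 4.60 on the other 8 arrays. Of 16 fibroblast markers 0 rose and 2 fell, Col1a2 and Twist1, with a median of 0.00, and their mean level was 5.67 and 5.83 on siSocs3 against 5.61 to 6.19 on the rest. Fewer of the 16 embryonic stem cell markers rose in siSocs3 against the other siRNAs. They were 3 against siSox17 (median 0.5), 6 against siFbxw7 (0.8) and 4 against siRnf31 (0.89), where 1.64%, 2.09% and 1.5% of all genes rose. In siSox17 against siNonTarget the median of these markers was 0.72, and 0 passed.

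**Figure D4:**
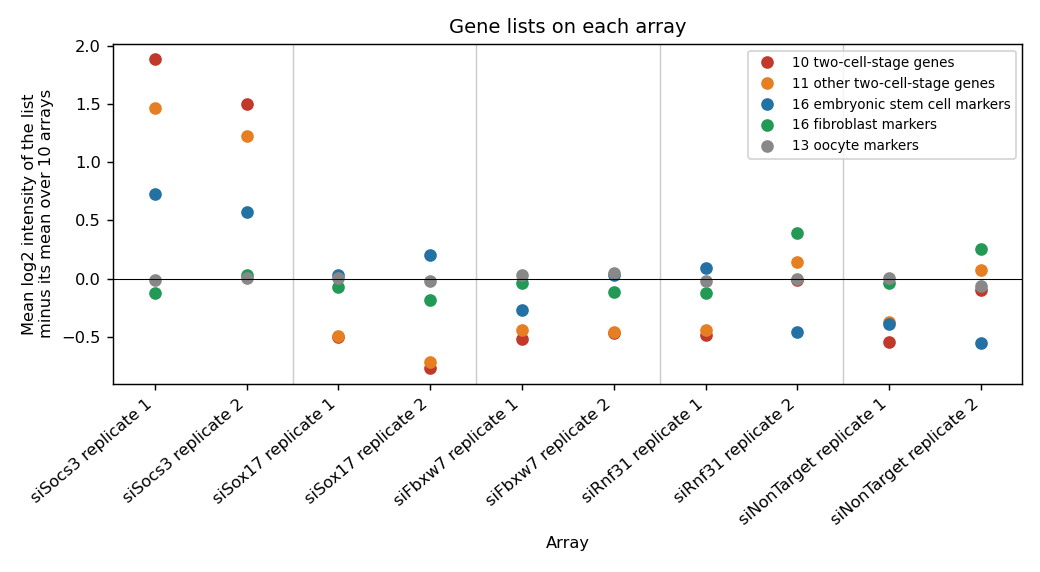
Mean log2 intensity of 5 gene lists on each array, minus the list's mean over the 10 arrays, with arrays on the x axis. On the siSocs3 arrays the 10 genes lie at 1.88 and 1.50 and the other lists below them, the oocyte markers near 0; on siRnf31 replicate 2 and siNonTarget replicate 2 the fibroblast markers are highest.

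Genes with the most similar course over the arrays were sought among the 649 of 18194 whose SD over the 10 arrays was at least 0.5, by Pearson's r with the mean of the 10 genes. Ercc4, a subunit of a DNA repair nuclease, came first, with r of 0.995 over 10 arrays and 0.95 over the 8 without siSocs3. It read 10.49 and 10.04 on siSocs3, 8.58 and 8.27 on siSox17, 8.45 and 8.40 on siFbxw7, 8.58 and 8.95 on siRnf31, and 8.54 and 8.84 on siNonTarget. Gm11487, Srp54b, Magel2 and Nelfa followed at 0.992, then Adcy2 at 0.991, Naalad2 and Ccser1 at 0.99, and Gm11544 and 1810062G17Rik at 0.989. Without siSocs3 the r values of these 10 genes ran from 0.853 for Adcy2 to 0.969 for Gm11544. Each was higher in siSocs3 than in siNonTarget, by 1.17 (Magel2) to 2.48 (Gm11544) on the log2 scale, a step that the choice by r includes.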

How the data were processed

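Each array came as deposited intensities on a linear scale, which the authors obtained by RMA, as the submitters' processing notes say; its version is not given in the sources used here. RMA corrects background, makes array distributions alike and summarises the probes of a set. It hides a shift common to most genes and compresses changes of dim probe sets. Array medians ran from 46.39 to 47.95. RNA was amplified from 5 ng before labelling, per the labels' protocols. Here log2 was taken, with no filter on dim genes. The platform annotation gave 34958 probe sets 1 symbol and 932 several; those with several, a Zscan4 probe set among them, were left out, and 9211 were not listed. Where a gene had several probe sets, that of highest mean was kept, leaving 18194 genes.

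The tests used limma 3.58.1 under R 4.3.3, with lmFit on all 5 groups together and eBayes (5 residual plus 3.98 prior degrees of freedom), two-sided tests, Benjamini-Hochberg adjustment over all genes within a comparison and a threshold of 0.05. The number of arrays limits the precision. Errors are SEs of this model unless marked SD. The script was tested on simulated data. The 10 genes and all lists were chosen with earlier results of these data known. Named genes are the 10 members, all measured genes of the lists of relatives, other 2-cell-stage genes and activators, the 6 repressors with the smallest p, and the 10 genes of highest correlation with the members; others (the targeted genes, Col3a1, Col1a2, Twist1, Actn3, Crygd and Cela2a) were named after their values were seen. Same-numbered replicates were checked for pairing: over 10 pairs of groups, 1 correlation of deviations was above 0.1 (range −0.26 to 0.42), so numbers were not taken to pair arrays. Plots were made in Python 3.11.15 with matplotlib 3.10.9. Alternatives covered normalization, dim genes, offset, probe sets, prior, arrays fitted, a replicate block and each array left out.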

Additional observations from a re-analysis of the deposited data

How the results depend on the processing

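Under 20 alternatives, 0 of the 10 genes passed in any of the 6 comparisons without siSocs3, and 0 relatives passed in those that measured Rfpl4. In the main fit 0.0055% of all genes passed in siSox17 against siNonTarget and 0% in each of the others. Almost no gene of any kind was called there, so nothing particular to the 10 genes is read from that count. The median excess of siSocs3 was 2.28 over siNonTarget, 2.67 over siSox17, 2.54 over siFbxw7 and 2.13 over siRnf31; with a pseudocount of 16 it was 1.59, 1.71, 1.65 and 1.60. Without the dimmest 50% of genes, which left 4 of the 10, it was 2.95 over siSox17, 2.92 over siFbxw7 and 2.39 over siRnf31. Leaving out single arrays gave 2.0 to 2.42 over siNonTarget, 2.49 to 2.80 over siSox17, 2.41 to 2.68 over siFbxw7 and 1.72 to 2.53 over siRnf31; without the arrays of high actin difference (siFbxw7 replicate 1 and siNonTarget replicate 1, added after seeing the data) it was 2.0 over siNonTarget. A group left with 1 array was given the spread of the rest.

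In siSocs3 against siNonTarget, other 2-cell-stage genes called were 9, and 4 of the 5 left without the dimmest 50%, 0 to 9 with an array left out and 3 without the high-actin arrays. Activators called were 2, and 0 to 2 with an array left out; they were 3, with Dppa4, without the dimmest 50% of genes, with a trended and robust prior and with the pseudocount of 16. Repressors called were 3, and 1 with the mean of probe sets, 5 with a trended and robust prior, 5 with the pseudocount of 16, 1 with only the 2 groups fitted, 0 to 4 with an array left out and 1 without the high-actin arrays. Obox5 (0.05) was −0.03 without siNonTarget replicate 2 and −0.04 without siSocs3 replicate 2, in a range of −0.04 to 0.13 with an array left out. All genes called were 1684, and 858 without the high-actin arrays; with an array left out they ran from 63 to 2074. With the replicate block, 1517 genes, 9 other 2-cell-stage genes, 2 activators and 3 repressors were called, so no call of a list changed in number. The 10 genes were not tested in siSocs3 against siNonTarget. With that block, 0 of them were called in the comparisons without siSocs3. The causes were not tested. Dim probe sets limit what can be said of Tcstv1, Tcstv3, BC147527, Tdpoz1, Duxf3 and Rfpl4b: their values without siSocs3 lie where genes of adult tissues are read. The lowest values of Trim43a (6.05), Ubtfl1 (6.57) and Zfp352 (6.67) without siSocs3 were also below the highest mean of those genes, 7.22 (Actn3).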

Other observations

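Of the 20 adult tissue genes used as a guide to dim probe sets, 2 rose in siSocs3 against siNonTarget, beside 3.59% of all genes. Crygd, a crystallin of the eye lens, read 7.66 and 8.21 on the siSocs3 arrays, 6.30 and 6.32 on siSox17, 5.89 and 6.54 on siFbxw7, 6.09 and 6.39 on siRnf31, and 5.71 and 6.32 on siNonTarget. It rose by 1.92 ± 0.27 (log2 difference with its SE, adjusted p = 0.00704, limma), which places it 52nd of 18194 genes by its rise. Its siSocs3 replicate 2 was above replicate 1, while replicate 2 was below replicate 1 in 10 of 10 genes of the 2-cell-stage set that holds Trim43a and Duxf3. Cela2a, a pancreatic elastase, read 5.59 and 5.22 on siSocs3 against 4.78 and 4.91 on siNonTarget, and rose by 0.56 ± 0.14 (adjusted p = 0.0427, limma). No role of either gene in these cells was tested.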
